A study of Mus musculus with 2 samples.

Results

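Apolipoproteins and the proteins that load, bind and unload them were followed across the cells of the dorsal root ganglion (DRG) through 7 genes, chosen by name from the 32285 genes of the files: *Apoe*, *Apod*, *Clu*, *Abca1*, *Abcg1*, *Lrp1* and *Lpl*. All 7 were present in both samples and passed the filter on low counts. The samples are replicates 1 and 2 of one group, L4 and L5 DRGs of naive female C57BL/6 mice aged 3 months, with no injury, drug or transgene, and how many mice each replicate pools is not given in the sources used here. The ganglia were digested with papain and collagenase, cells that excluded a dead cell stain were sorted, and RNA was captured in droplets by 3′ single-cell RNA-seq with a unique molecular identifier (UMI) for each captured transcript. With a single group, the comparisons are between cell types, each measured in both replicates, and the p-values cover the spread between these 2 samples. That spread is estimated for each gene over all cell types together, so a standard error does not give the spread of 1 type alone.

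Lipids leave and enter cells on lipoprotein particles. The transporters ABCA1 and ABCG1 move cholesterol and phospholipid out of the cell onto apolipoproteins, apolipoprotein E above all in nervous tissue, and receptors of the LDL receptor family such as LRP1 take the particles up, while lipoprotein lipase frees fatty acids from the particles that carry triglyceride. Apolipoprotein D, a small lipid carrier of the lipocalin family, and clusterin, an extracellular chaperone also named apolipoprotein J, are secreted as well. *Apoe*, *Abca1* and *Abcg1* are known targets of the sterol sensors of the LXR family.

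Each of the 3 promoters shown belongs to a gene that was highest in a different cell type, *Apoe* in satellite glial cells (SGCs), *Apod* in fibroblasts and *Abca1* in macrophages. The RefSeq table on GRCm38.p6 held promoters of 4 of the 7 genes, each running from 250 bases before the start of transcription to 50 bases after it. Capitals mark GGTCA or its reverse complement TGACC, the core of the site that LXR and related receptors bind, and TATAAA or its reverse complement TTTATA, the letters of a TATA box. The table lists 3 starts for *Apoe*, of which the one at the 5′ end of the gene is shown, and the promoter at chr7:19698572-19698871 held the TATAAA letters at 2 places and the remaining one neither motif. The *Apoe* promoter shown held GGTCA at 1 place, *Abca1* held TGACC at 1 place and TATAAA at 1 place, and *Apod* held none of these letters. Of all 32851 promoters in the table, 40.5% held the first motif and 13.6% the second, so the matches describe the letters only.
*Apoe*, chr7:19699139-19699438, minus strand: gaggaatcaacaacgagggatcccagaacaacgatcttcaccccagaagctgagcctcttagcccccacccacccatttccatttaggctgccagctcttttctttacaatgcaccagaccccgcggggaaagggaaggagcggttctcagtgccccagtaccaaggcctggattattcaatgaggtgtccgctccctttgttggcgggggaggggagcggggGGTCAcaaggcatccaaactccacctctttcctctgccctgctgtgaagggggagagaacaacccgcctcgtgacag
*Apod*, chr16:31314759-31315058, minus strand: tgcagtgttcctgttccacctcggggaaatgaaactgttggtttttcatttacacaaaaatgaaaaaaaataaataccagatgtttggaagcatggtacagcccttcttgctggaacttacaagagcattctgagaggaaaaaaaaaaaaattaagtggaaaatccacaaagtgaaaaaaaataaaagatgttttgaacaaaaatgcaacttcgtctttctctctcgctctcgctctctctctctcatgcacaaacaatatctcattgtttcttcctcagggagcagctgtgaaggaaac
*Abca1*, chr4:53159846-53160145, minus strand: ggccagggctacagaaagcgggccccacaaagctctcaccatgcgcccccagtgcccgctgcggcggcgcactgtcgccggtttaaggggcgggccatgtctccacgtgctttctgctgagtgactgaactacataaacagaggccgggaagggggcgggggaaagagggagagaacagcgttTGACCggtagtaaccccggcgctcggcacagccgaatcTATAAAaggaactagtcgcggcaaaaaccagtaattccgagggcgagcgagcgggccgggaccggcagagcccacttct

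From 119101743 UMIs in replicate 1 and 128668771 in replicate 2, 16457 cells were retained, and 14140 of them lay in clusters that took the name of one of 8 types. SGCs, the glia that wrap sensory neuron somas, numbered 3492 and 3348 in the 2 replicates, non-myelinating Schwann cells (nmSchwann) 629 and 706, and myelinating Schwann cells (mSchwann) 1587 and 1621. Fibroblasts numbered 521 and 745, mural cells of the vessel wall 366 and 299, macrophages 189 and 154, endothelial cells 183 and 199, and neurons 52 and 49. Of the 16 genes in the marker pairs of these types, 15 had their highest level in their own type in both replicates, the exception being *L1cam*, which was as high in neurons as in nmSchwann. Clusters were named in part by these same pairs, so this result was largely fixed beforehand and does not check the names. The UMIs of each type were summed per replicate, in profiles of 1911636 to 55210613 UMIs, and levels are expressed in CPM, a gene's share of the UMIs of that profile on a scale where 6.18% reads as 61843 CPM. Counts of 3′ ends were not set against each other between genes, except to pick the genes named from the wider list. The 45001 barcodes ranked 45000 to 90000 by UMIs in each replicate, which hold free RNA and no cell, served as empty droplets. Their RNA made up at most 2.07% to 4.57% of a profile, a bound taken from the markers of other types. Between the replicates, 134 barcodes were called as cells in both. A cluster of 835 and 746 cells led by *Pou3f1*, with 3 SGC markers among its leading genes where 4 were required, was kept out of SGCs by a threshold set with the data in view, and it made up 10.2% and 8.98% of retained cells.

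*Apoe* was highest in SGCs, followed by macrophages and nmSchwann, and it was lowest in mSchwann. The gene (ENSMUSG00000002985) spans chr7:19696109-19699188 on the minus strand with 4 exons. SGCs had 61843 CPM in replicate 1 and 62169.8 CPM in replicate 2 (mean 62006 ± 231, SD, n = 2), so that 6.18% and 6.22% of all their UMIs came from this gene. Macrophages had 28388 and 25084 CPM, and nmSchwann 12922 and 13266 CPM. No values of these 3 types overlapped. The log2 difference was 1.16 between SGCs and macrophages (standard error 0.19, adjusted p = 5.21e-05) and 1.35 between macrophages and nmSchwann (standard error 0.19, adjusted p = 1.36e-05, edgeR's quasi-likelihood test for all adjusted p-values).

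Below these types came fibroblasts with 5250.4 and 6117 CPM of *Apoe*, endothelial cells with 3432 and 2945 CPM, neurons with 1657 and 2622 CPM, mural cells with 1774 and 2464 CPM and mSchwann with 1414 and 1932 CPM. Each step in this order down to neurons passed the test, whereas neurons against mural cells (adjusted p = 0.981) and mural cells against mSchwann (adjusted p = 0.258) did not, and their values overlapped. Empty droplets held 41268 and 40449 CPM, above every type but SGCs. At its bound, their RNA would give 124% and 82.2% of the *Apoe* UMIs of mSchwann, 62.4% and 43.0% of those of neurons and 61.8% and 45.0% of those of mural cells, but 1.38% and 1.81% of those of SGCs. Without the 8% of cells most like simulated doublets, *Apoe* in endothelial cells was 1035 and 1228 CPM, in fibroblasts 2809 and 3298 CPM, and in SGCs 62498 and 62845 CPM.

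SGCs made up 42.9% and 40.3% of retained cells and held 88.1% and 87.5% of the *Apoe* UMIs of these cells. *Apoe* was spread over all of them rather than held by a few. The median SGC had 60846 CPM in replicate 1, with quartiles of 43995 and 74621 CPM, and the median SGC of replicate 2 had 61775 CPM. After each cell was thinned to 1000 UMIs, a UMI of *Apoe* was present in 3492 of 3492 SGCs in replicate 1 (exact binomial 95% interval from 99.9% to 100%) and in 3347 of 3347 in replicate 2. The share was 72.7% and 85.1% in mSchwann, where the bound of free RNA reached the counted level in replicate 1. Median depths were 14779 and 15798 UMIs in SGCs and 5104 and 5487 in mSchwann, and without thinning the mSchwann share was 99.2% and 99.9%. Such intervals cover counting error only.

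**Figure D1:**
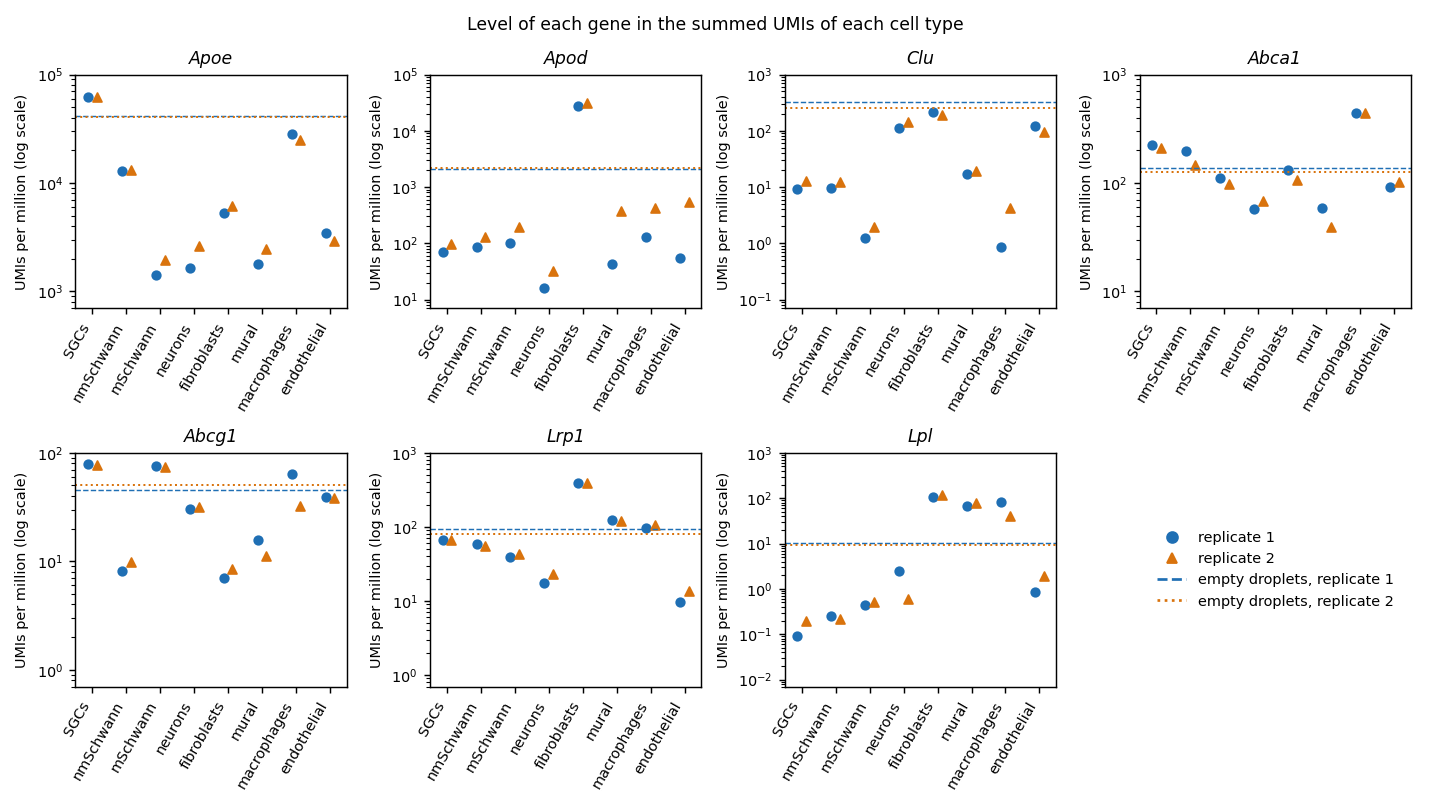
Level of each gene in CPM (log scale) in the summed UMIs of each cell type, with a circle for replicate 1 and a triangle for replicate 2. Dashed and dotted lines give the level in empty droplets of replicates 1 and 2. *Apoe* exceeds this level in SGCs alone, at 61843 and 62169.8 CPM, and *Clu* stays below it in all 8 types.

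*Apod* was far higher in fibroblasts than in any other type. The gene (ENSMUSG00000022548) spans chr16:31296192-31314808 on the minus strand with 6 exons. Fibroblasts had 27884 and 30729 CPM (mean 29306 ± 2012, SD, n = 2) and held 96.6% and 95.7% of all *Apod* UMIs in retained cells, while making up 6.39% and 8.97% of the cells. The next type by mean, endothelial cells, had 55.1 and 549 CPM, and macrophages had 130.1 and 421 CPM. Mural cells had 43.0 and 371 CPM, mSchwann 102 and 195 CPM, nmSchwann 85.0 and 131 CPM, SGCs 70.7 and 95.7 CPM and neurons 16.3 and 32.5 CPM. Fibroblasts exceeded endothelial cells by a log2 difference of 6.60 (standard error 0.97, adjusted p = 2.02e-05), and none of the 6 steps below passed the test. Replicate 2 was higher than replicate 1 in each of the 8 types. Empty droplets had 2093 and 2162 CPM, above every type but fibroblasts.

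The replicates parted most in endothelial cells, mural cells and macrophages, and there the *Apod* UMIs of replicate 2 lay in few cells. In endothelial cells 3 of 199 cells held 2083 of 2288 UMIs (91.0%). A single cell of 299 held 880 of 1068 UMIs in mural cells, and a single cell of 154 held 549 of 805 UMIs in macrophages. Without the 3 highest cells of each profile, replicate 2 stood at 50.4 CPM in endothelial cells, 55.1 CPM in mural cells and 116 CPM in macrophages, against 24.2, 38.6 and 84.1 CPM in replicate 1. In fibroblasts the 3 highest cells held 2.64% and 2.34%. Summed over the 11 fibroblast markers, endothelial cells had 131 CPM in replicate 1 and 370.3 CPM in replicate 2, macrophages 142 and 431 CPM and mural cells 994 and 1199.7 CPM, with at most 1 of the 11 markers at 0 in any of these profiles, and the part of fibroblast RNA in these values was not tested. Without likely doublets mural cells had 42.9 and 56.7 CPM of *Apod*, and macrophages 144 and 141 CPM. The level of endothelial cells without likely doublets is not given here, so these values do not cover all 3 types. Against the mean of the other types, *Apod* in endothelial cells did not pass with likely doublets or without them. After thinning, 78.0% of fibroblasts in replicate 1 (95% interval 74.1% to 81.4%) and 81.2% in replicate 2 (78.2% to 84.0%) had a UMI of *Apod*, against 6.59% and 8.34% of SGCs, and the unthinned shares were 94.8% and 96.1% of fibroblasts and 54.7% and 67.0% of SGCs. Fibroblasts had median depths of 12286 and 12597 UMIs.

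**Figure D2:**
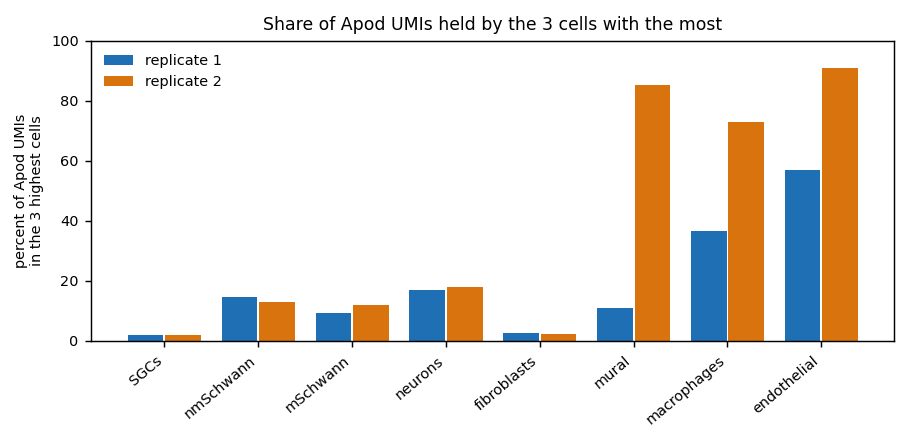
Share of the *Apod* UMIs of each profile, in percent, that lay in the 3 cells with the most, for each cell type and replicate (bars, replicate 1 left and replicate 2 right). In replicate 2 the share reached 91.0% in endothelial cells and 85.4% in mural cells, against 2.34% in fibroblasts.

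*Clu* was highest in fibroblasts, then in neurons and endothelial cells, and low in glia and macrophages. The gene (ENSMUSG00000022037) spans chr14:65968483-65981547 on the plus strand with 9 exons. Fibroblasts had 219.8 and 193 CPM, neurons 112 and 141 CPM and endothelial cells 122 and 95.1 CPM. Neurons lay below fibroblasts by a log2 difference of 0.70 (standard error 0.15, adjusted p = 0.000655) and did not differ from endothelial cells at the threshold (adjusted p = 0.207, values overlapping). A wide gap followed, of 2.53 on the log2 scale (standard error 0.23, adjusted p = 8.55e-08), down to mural cells with 16.8 and 19.5 CPM. SGCs had 9.13 and 13.02 CPM, nmSchwann 9.67 and 12.3 CPM, macrophages 0.870 and 4.18 CPM (2 and 8 UMIs) and mSchwann 1.22 and 1.95 CPM (11 and 19 UMIs). Mural cells against SGCs (adjusted p = 0.0996) and SGCs against nmSchwann (adjusted p = 0.483) did not pass the test, while nmSchwann exceeded macrophages (log2 difference 1.89, standard error 0.60, adjusted p = 0.0155).

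Empty droplets had 322 and 254 CPM of *Clu*, more than any named type in either replicate. Among the clusters without a name, one of 155 and 276 cells led by *Lyz2*, with medians of 1027 and 1236 UMIs, had 564 and 509 CPM. In fibroblasts, neurons and endothelial cells the RNA of empty droplets would give at most 2.77% to 7.21% of the *Clu* UMIs, in SGCs at most 73.1% and 54.2%, and in nmSchwann, macrophages and mSchwann from 94.3% up to more than the UMIs counted. The UMIs of *Clu* in neurons were spread over the cells, with medians of 10.0 and 12.0 UMIs per cell. In thinned cells the share with a UMI was 14.1% and 13.7% of fibroblasts, 15.4% and 18.4% of neurons and 0.126% and 0.310% of mSchwann.

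*Abca1*, the exporter that starts a lipoprotein particle, was highest in macrophages, and SGCs came second. It (ENSMUSG00000015243) spans chr4:53030787-53159895 on the minus strand with 50 exons. Macrophages had 438.1 and 438.4 CPM and SGCs 224 and 211 CPM, a log2 difference of 1.06 (standard error 0.15, adjusted p = 9.15e-06). NmSchwann had 199 and 146 CPM, fibroblasts 131 and 106 CPM, mSchwann 112 and 98.4 CPM, endothelial cells 92.3 and 102 CPM, neurons 57.0 and 68.4 CPM and mural cells 59.2 and 38.9 CPM. The steps from SGCs to nmSchwann (adjusted p = 0.00456), from nmSchwann to fibroblasts (adjusted p = 0.0155) and from endothelial cells to neurons (adjusted p = 0.00546) passed the test. Fibroblasts, mSchwann and endothelial cells did not differ between neighbours, nor did neurons and mural cells, and in each of these steps the values overlapped. Empty droplets had 137 and 125 CPM. A UMI was present in 41.3% and 35.1% of thinned macrophages, against 4.10% and 5.02% of mural cells and 18.6% and 16.7% of SGCs.

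*Abcg1*, which exports cholesterol to particles that already hold lipid, was highest in SGCs and mSchwann. The gene (ENSMUSG00000024030) spans chr17:31057675-31117988 on the plus strand with 15 exons, and the small gene *Gm25447* lies inside it on the same strand. SGCs had 78.5 and 76.4 CPM and mSchwann 76.1 and 74.1 CPM (log2 difference 0.16, standard error 0.13, adjusted p = 0.336). Macrophages had 64.0 and 32.4 CPM from 147 and 62 UMIs, endothelial cells 39.4 and 38.7 CPM, and neurons 30.4 and 31.6 CPM. Mural cells had 15.6 and 11.1 CPM, nmSchwann 8.18 and 9.93 CPM and fibroblasts 7.04 and 8.44 CPM. The 2 kinds of Schwann cell were thus far apart, with a log2 difference of 3.19 between mSchwann and nmSchwann (standard error 0.21, adjusted p = 2.46e-09). Between neighbours, mSchwann against macrophages did not pass the test (log2 difference 0.43, standard error 0.18, adjusted p = 0.0581), though their values did not overlap. Neurons against mural cells passed (adjusted p = 0.000536). Macrophages against endothelial cells passed too (adjusted p = 0.0224), but their values overlapped, with macrophages the higher in replicate 1 and the lower in replicate 2. Empty droplets had 45.4 and 50.5 CPM.

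*Lrp1*, the endocytic receptor of *Apoe* and of many other ligands, was highest in fibroblasts and lowest in endothelial cells. It (ENSMUSG00000040249) spans chr10:127538161-127621148 on the minus strand with 89 exons, and *Gm16217* overlaps it on the opposite strand. Fibroblasts had 395 and 386 CPM (mean 391 ± 6.17, SD, n = 2), mural cells 124 and 120.2 CPM and macrophages 95.7 and 106 CPM. SGCs had 67.5 and 67.3 CPM, nmSchwann 58.2 and 55.2 CPM, mSchwann 39.5 and 42.6 CPM, neurons 17.5 and 22.9 CPM and endothelial cells 9.79 and 13.4 CPM. Each of the 7 steps in this order passed the test except that from mural cells to macrophages (log2 difference 0.04, standard error 0.11, adjusted p = 0.814). Fibroblasts stood above mural cells by 1.65 on the log2 scale (standard error 0.09, adjusted p = 2.89e-10). Empty droplets had 92.3 and 80.4 CPM. In thinned cells, 29.6% and 32.7% of fibroblasts had a UMI of *Lrp1*, against 0.546% and 1.01% of endothelial cells.

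*Lpl* was found in fibroblasts, mural cells and macrophages and was near 0 elsewhere. The gene (ENSMUSG00000015568) spans chr8:68880491-68907448 on the plus strand with 10 exons. Fibroblasts had 105 and 115 CPM, mural cells 68.5 and 78.9 CPM and macrophages 84.4 and 41.3 CPM. Fibroblasts exceeded mural cells (log2 difference 0.55, standard error 0.19, adjusted p = 0.0317), and mural cells did not differ from macrophages at the threshold (adjusted p = 0.928, values overlapping). Fibroblasts against macrophages did not pass either (log2 difference 0.51, standard error 0.21, adjusted p = 0.0555). Macrophages then exceeded neurons by 5.61 on the log2 scale (standard error 0.40, adjusted p = 1.61e-09). Neurons had 14 and 3 UMIs, endothelial cells 3 and 8, mSchwann 4 and 5, nmSchwann 1 and 1, and SGCs 5 and 11 UMIs in 54677844 and 55210613. Empty droplets had 10.5 and 9.40 CPM. In thinned cells, 11.2% and 10.5% of fibroblasts had a UMI of *Lpl*, against 0 of 3492 and 1 of 3347 SGCs, of which 5 of 3492 (0.143%) and 11 of 3348 (0.329%) had one without thinning. In macrophages, 3 of 189 cells held 34.0% of the 194 UMIs of replicate 1, and 3 of 154 cells held 50.6% of the 79 UMIs of replicate 2.

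The reference of each type was the mean of the log2 levels of the 7 remaining types, each weighted equally. Types with very low levels pull such a mean down. A gene can thus be called higher in a type that several others exceed, as *Lrp1* in SGCs, which lay below fibroblasts, mural cells and macrophages. SGCs differed from that mean in the test for all 7 genes (background: 56.9% of 17842 genes tested). *Apoe* (log2 fold change 3.90, standard error 0.11, adjusted p = 1.15e-14), *Abcg1* (1.87, standard error 0.10), *Abca1* (1.08, standard error 0.10) and *Lrp1* (0.35, standard error 0.07) were higher. *Lpl* (-4.96, standard error 0.89), *Apod* (-1.66, standard error 0.67, adjusted p = 0.0426) and *Clu* (-0.80, standard error 0.19, adjusted p = 0.0015) were lower. The 3 lower calls were lost once the RNA of empty droplets was subtracted, with *Lpl* at -7.76 and *Apod* at -0.89 (adjusted p = 1 for both), while *Clu* turned to 0.81 (adjusted p = 0.638). For nmSchwann 6 of 7 passed (37.6% of all genes), with *Apoe* (1.03, standard error 0.13) and *Abca1* (0.39, standard error 0.12) higher and *Clu*, *Abcg1*, *Lrp1* and *Lpl* lower. This call of *Abca1* was lost with DESeq2 in place of edgeR (0.35, adjusted p = 0.0631). It was also lost with types taken cell by cell from marker pairs (0.08, adjusted p = 0.746) and with the same number of cells per type (0.17, adjusted p = 0.862). Marker pairs gave 41 and 13 neurons, too few for a profile in replicate 2, so that the mean of the other types lacks neurons there. *Apod* in nmSchwann was at -1.53 (adjusted p = 0.0986) and passed with the replicate as a block (-1.46, adjusted p = 0.0173). For mSchwann 5 of 7 passed (51.1% of all genes), *Abcg1* (1.68, standard error 0.11) higher and *Apoe* (-2.19), *Clu* (-4.11), *Lrp1* (-0.61) and *Lpl* (-3.20) lower. *Abca1* in mSchwann was at -0.26 (adjusted p = 0.0793, and 0.0395 with the block).

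In fibroblasts 5 of 7 passed (47.7% of all genes), with *Apod* (7.76, standard error 0.45), *Lpl* (5.61, standard error 0.18), *Clu* (3.78, standard error 0.12) and *Lrp1* (3.00, standard error 0.06) higher and *Abcg1* (-2.15, standard error 0.18) lower. In macrophages 6 of 7 passed (50.1% of all genes), with *Lpl* (5.03, standard error 0.27), *Apoe* (2.58, standard error 0.12), *Abca1* (2.29, standard error 0.11), *Abcg1* (1.19, standard error 0.17) and *Lrp1* (1.07, standard error 0.09) higher and *Clu* (-3.26) lower. In mural cells 5 of 7 passed (42.0% of all genes), *Lpl* (4.98, standard error 0.24) and *Lrp1* (1.11, standard error 0.08) higher and *Apoe*, *Abca1* and *Abcg1* lower. In endothelial cells 5 of 7 passed (51.6% of all genes), *Clu* (2.70, standard error 0.15) and *Abcg1* (0.48, standard error 0.15) higher and *Apoe*, *Abca1* and *Lrp1* (-2.80) lower. In neurons 5 of 7 passed (67.8% of all genes), *Clu* (2.98, standard error 0.14) higher and *Apoe*, *Apod*, *Abca1* and *Lrp1* lower. Without likely doublets, *Apoe* in fibroblasts passed as lower (-0.79, adjusted p = 0.00172, against -0.29 and 0.118 with them), and so did *Apod* in mural cells (-2.15, adjusted p = 4.99e-05, against -0.38 and 0.718). *Lrp1* in nmSchwann (-0.24, adjusted p = 0.0350) did not pass without TMM (-0.11, adjusted p = 0.392). After subtraction of the RNA of empty droplets, *Apoe* no longer passed in nmSchwann (1.75, adjusted p = 0.0764), neurons (-2.15, adjusted p = 0.0714), mural cells (-2.18, adjusted p = 0.102) and endothelial cells (-0.89, adjusted p = 0.472). In nmSchwann this RNA was at most 10.1% and 13.9% of the *Apoe* UMIs, and the fitted difference grew from 1.03. In mSchwann the bound was 124% and 82.2%, above the counted UMIs in replicate 1 alone, and all types share 1 estimate of the spread. The cause of the lost *Apoe* calls was not tested. The test was lost as well, at larger fitted differences, for *Clu* in macrophages (-9.09), mSchwann (-9.09) and nmSchwann (-3.53) and for *Lpl* in nmSchwann (-7.76) and mSchwann (-4.86), with adjusted p = 1 for each. In SGCs and nmSchwann for *Lpl*, and in macrophages and mSchwann for *Clu*, the subtracted amount exceeded the counted UMIs in both replicates, so that these fitted values are no bound. The subtracted amount also exceeded the counted UMIs in both replicates for *Apod* in neurons, which still passed as lower. *Lrp1* in nmSchwann stood at -0.23 (adjusted p = 0.0882).

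Over all 56 of these values, 8 turned their sign when the cells of all other types were summed into 1 profile in place of the mean. This changes both the weight of each type and the scale, from a mean of log2 levels to summed counts. The part of each change was not tested. SGCs held 53.5% and 52.1% of the UMIs of retained cells. *Apoe* then stood at -1.67 in nmSchwann and -0.22 in macrophages, and *Lrp1* at -0.52 in SGCs. Of the 28 pairs of types, 27 differed in *Lrp1*, 25 in *Apoe*, 24 in *Abca1*, 23 each in *Clu* and *Abcg1*, 18 in *Lpl* and 11 in *Apod*. The background of these counts, the share of all genes tested that differed between a pair of types, was 33.0% for SGCs against nmSchwann, 50.6% against mSchwann, 66.5% against neurons, 55.5% against fibroblasts, 50.3% against mural cells, 55.6% against macrophages and 59.9% against endothelial cells. For nmSchwann it was 35.9% against mSchwann, 61.8% against neurons, 42.4% against fibroblasts, 40.4% against mural cells, 47.9% against macrophages and 49.1% against endothelial cells. For mSchwann it was 66.3% against neurons, 55.5% against fibroblasts, 46.7% against mural cells, 51.3% against macrophages and 52.9% against endothelial cells. For neurons it was 64.6% against fibroblasts, 61.4% against mural cells, 62.8% against macrophages and 65.8% against endothelial cells. Fibroblasts had 39.7% against mural cells, 50.3% against macrophages and 50.3% against endothelial cells, mural cells 47.3% against macrophages and 42.8% against endothelial cells, and macrophages 44.2% against endothelial cells.

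**Figure D3:**
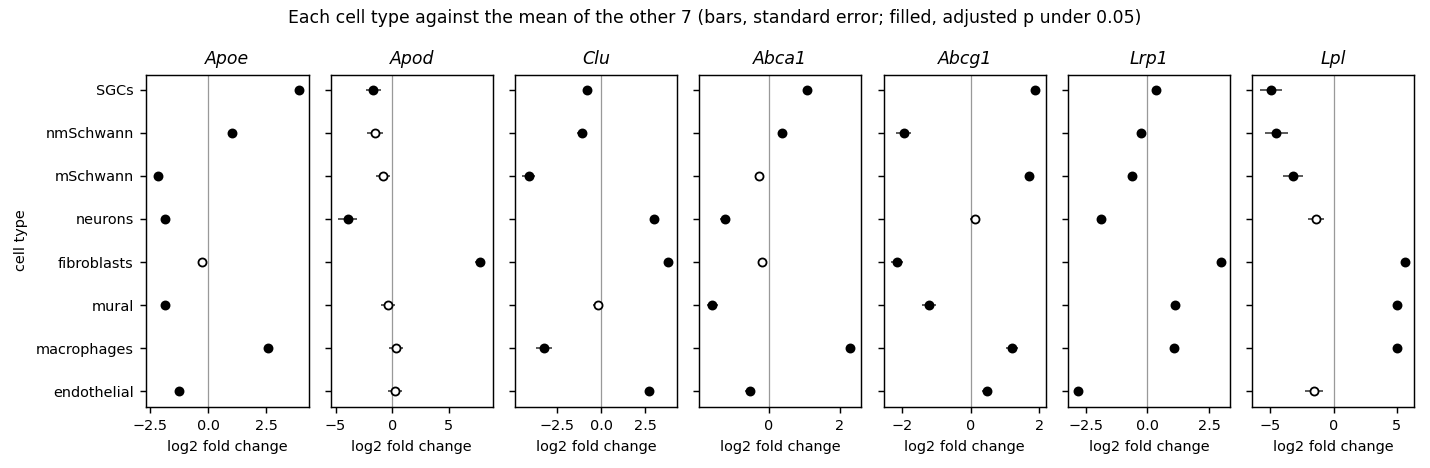
Log2 fold change of each gene in each cell type relative to the mean of the log2 levels of the 7 remaining types. The standard error is drawn as a bar, and points are filled for adjusted p under 0.05. The scale differs between panels, and *Apod* in fibroblasts, at 7.76, is the highest of the 56 values.

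Within several types, the levels of these genes differed between clusters. Clusters were drawn from these same cells, so the values are a description. Clustering did not use the 7 genes, and no marker list holds them. The 2 fibroblast clusters split *Apod*, *Lpl* and *Clu* between them. In the cluster led by *Apod*, *Dcn* and *Tgfbi* (278 and 407 cells), *Apod* was at 53901 and 53466 CPM, *Lpl* at 195 and 199.9 CPM and *Clu* at 28.6 and 21.2 CPM. In the cluster led by *Igfbp6*, *Mgp* and *Ecrg4* (243 and 338 cells), *Apod* was at 3199 and 3692 CPM, *Lpl* at 19.7 and 14.7 CPM and *Clu* at 401 and 397 CPM. *Lrp1*, by contrast, was at 396 and 406 CPM in the first and 394 and 363 CPM in the second. The 8 markers of perineurial cells, summed, had 2878 and 2683 CPM in fibroblasts, against at most 778 CPM in any other type, and their part in the *Clu* of the second cluster was not tested.

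Among mural cells, *Lpl* was at 206 and 316 CPM in the smaller cluster, led by *Acta2* (25 and 23 cells), and at 55.8 and 52.5 CPM in the larger, led by *Rgs5* (341 and 276 cells). *Abcg1* had no UMI in the smaller one. Among endothelial cells, *Abca1* was at 263 and 348 CPM in a cluster of 25 and 21 cells led by *Ctla2a* and at 70.8 and 80.0 CPM in the cluster of 158 and 178 cells led by *Flt1*. The 4 SGC clusters differed by 1.54 times in *Apoe* and by 6.24 times in *Clu*, by the mean CPM of the replicates. *Apoe* was at 73799 and 72814 CPM in the cluster led by *2900052N01Rik*, *Bcan* and *Acsbg1*, at 60923 and 61983 CPM in the cluster led by *2900052N01Rik*, *Bcan* and *Myo16*, and between 47032 and 53199 CPM in the remaining 2, which *Bcan* led. *Clu* was at 14.9 and 18.6 CPM in the first, at 13.4 and 24.96 CPM in the second, and at 2.45 to 3.70 CPM in the last 2. By the mean CPM of the replicates, the 2 mSchwann clusters differed by 1.49 times in *Clu* and by at most 1.26 times in the 6 other genes. The *Clu* values rested on 8 and 3 UMIs in replicate 1 and 17 and 2 UMIs in replicate 2.

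**Figure D4:**
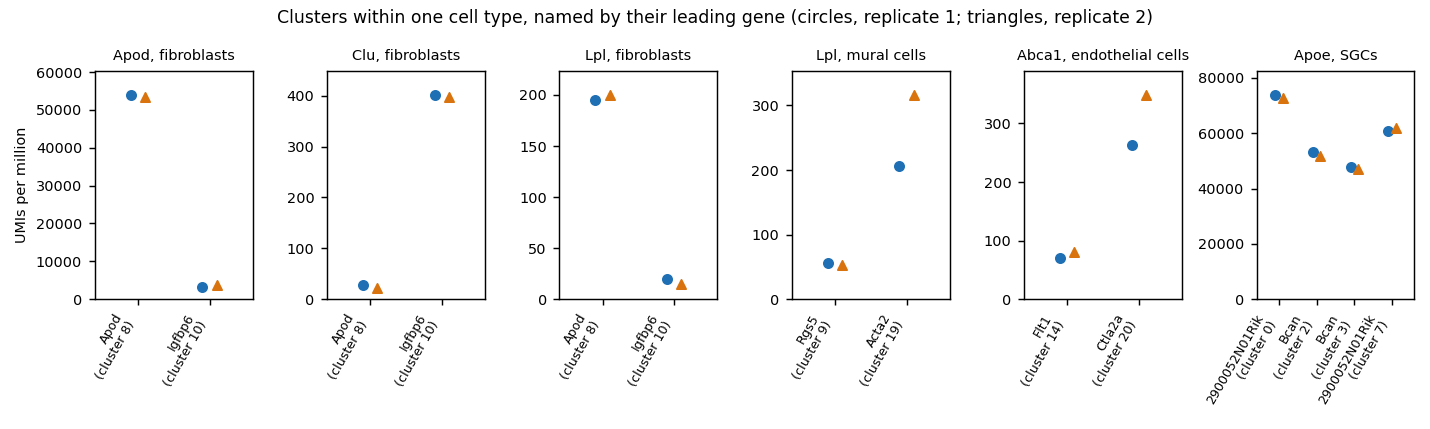
CPM of *Apod*, *Clu* and *Lpl* in the 2 fibroblast clusters, of *Lpl* in the 2 mural clusters, of *Abca1* in the 2 endothelial clusters and of *Apoe* in the 4 SGC clusters, each cluster named by its leading gene (circles, replicate 1, and triangles, replicate 2). The axes start at 0 and differ between panels. *Clu* reads 401 and 397 CPM in the *Igfbp6* cluster, where *Apod* is low.

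A wider list of 79 genes of lipoprotein and sterol transport, of which 65 passed the filter on low counts, was read in the same fit. In SGCs 33 of the 65 were higher (34.2% of all genes) and 15 lower (22.7%), with a median log2 fold change of 0.46 against 0.05 over all genes. In neurons the counts ran the other way, 16 higher (36.8%) and 34 lower (30.9%), with a median of -1.01, and in mural cells 13 were higher (22.5%) and 28 lower (19.5%), with a median of -0.77. Macrophages had 27 higher (23.1%) and 16 lower (27.0%), endothelial cells 25 higher (26.1%) and 22 lower (25.5%), and fibroblasts 22 higher (26.8%) and 16 lower (20.9%). NmSchwann had 20 higher (20.7%) and 15 lower (16.9%), and mSchwann 22 higher (27.5%) and 20 lower (23.6%).

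Among the 16 other apolipoproteins, 5 passed the filter. *Apoc1*, an apolipoprotein encoded near *Apoe*, was highest in SGCs (88.4 and 82.4 CPM), with macrophages next (mean 17.4 CPM). *Apoc2*, the cofactor of lipoprotein lipase, was at 12.6 and 14.6 CPM in macrophages (57 UMIs in all), and *Apol9b* at 19.3 and 18.97 CPM in endothelial cells. *Apoa4*, *Apoa5* and *Apoc3* had no UMI in any named type. Among the 14 other ABC transporters, *Abca8a* and *Abca8b* were highest in nmSchwann (1885 and 2140 CPM, and 1094 and 1215 CPM), and *Abcg2*, a drug exporter of vessel walls, was highest in endothelial cells (1531 and 1515 CPM). *Abca9* was at 219 and 209 CPM in fibroblasts, close to the mean of 199 CPM in macrophages.

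Of the 22 lipoprotein receptors and partners, 21 passed the filter, and 10 were higher and 5 lower in SGCs (34.2% and 22.7% of all genes), in macrophages (23.1% and 27.0%) and in endothelial cells (26.1% and 25.5%) alike, while in neurons 4 were higher and 13 lower (36.8% and 30.9%). *Scarb1*, the receptor of high-density lipoprotein, was at 572 and 699 CPM in endothelial cells. *Cd36*, a scavenger receptor and fatty acid carrier, and *Stab1*, another scavenger receptor, were highest in macrophages (620 and 436 CPM, and 311 and 302 CPM). *Lrp6* was highest in fibroblasts (300.2 and 303 CPM). Of the 10 lipoprotein enzymes and regulators, *Pltp*, the phospholipid transfer protein, had 691 and 613 CPM in endothelial cells, and *Gpihbp1*, which holds lipoprotein lipase on the capillary wall, had 204 and 234 CPM there and a mean of 0.521 CPM in mural cells, the next type. *Lipa*, the lysosomal acid lipase, was at 104 and 109 CPM in macrophages, and *Angptl4*, an inhibitor of lipoprotein lipase, at 85.1 and 98.2 CPM in SGCs. The next types were endothelial cells for *Lipa* (mean 89.8 CPM) and fibroblasts for *Angptl4* (mean 66.6 CPM). Of the 17 sterol genes, *Npc2*, which carries cholesterol out of lysosomes, had 726 and 841 CPM in macrophages, *Rxrg* 261 and 249 CPM in nmSchwann, *Gramd1b* 219 and 223 CPM in SGCs and *Soat1*, which esterifies cholesterol for storage, 168 and 116 CPM in macrophages. SGCs came next for *Soat1*, with a mean of 119.97 CPM, above the macrophages of replicate 2.

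The genes whose levels ran most like each of the 7 were sought among 10435 genes by Pearson's r of log2(CPM + 1) over the 16 profiles, which come from 2 samples and differ in depth. For *Apoe* these were *Aldh9a1* (0.96), *Kcnn4* (0.94) and *Apoc1* (0.93), and for *Apod* *Smoc2* (0.97), *Igfbp6* (0.95) and *Cdkn2a* (0.95). *Clu* ran with *Gnas* (0.95), *Tshz2* (0.93) and *Dapk2* (0.92). *Abca1* ran with *Npc2* (0.96), *Gnpda1* (0.95) and *Asah1* (0.94), and *Abcg1* less closely with *Med8* (0.86), *Ephb1* (0.82) and *Comtd1* (0.81). *Lrp1* ran with *Cstb* (0.90), *Fhit* (0.90) and *Olfml3* (0.88), and *Lpl* with *Pid1* (0.94), *Ramp1* (0.94) and *Tmem119* (0.93). Among the 7 genes themselves, r was highest between *Apoe* and *Abca1* (0.83) and between *Lrp1* and *Lpl* (0.73), and lowest between *Clu* and *Abca1* (-0.52).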

How the data were processed

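The authors deposited, for each of the 2 samples, a matrix of raw UMI counts per gene and barcode, all barcodes included, made with Cell Ranger 7.1.0 per the file headers and aligned to mm10 per the submitters' processing notes. The release of the gene annotation is not given in the sources used here. Gene positions were read from GENCODE on GRCm38, where 32158 gene IDs matched and 127 did not. The members and lists were chosen with earlier results of these data known.

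Barcodes were called as cells by a UMI cutoff plus a test against empty droplets (at least 500 UMIs, 10000 simulations, false discovery rate 0.01) and kept with over 300 genes, which left 8801 and 8766. Cells were clustered with Seurat 5.3.0 and sctransform 0.4.2 (30 principal components, resolution 0.8), without the 7 genes and without the wider list's genes among the variable genes. A cluster took a type's name with at least 4 of that type's markers among its 50 leading genes and with the type's marker pair highest there. Cells above 5 median absolute deviations within their type and clusters with a mean under 1000 genes (1 shallow cluster of 424 cells led by neuron genes) were removed. Doublets were removed only as an alternative. These steps are not the study's own, and a difference from it may come from the rebuilt names.

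UMIs were summed per type and replicate (at least 20 cells) and tested with edgeR 4.0.16's quasi-likelihood test in R 4.3.3, TMM normalization, cell type as the only term, and Benjamini-Hochberg adjustment over 17842 genes with at least 10 counts in 2 profiles. The threshold was 0.05. Levels are plain CPM, and fold changes include TMM. Shares of cells came from cells thinned to 1000 UMIs. Tested on simulated data with 200 changed genes, the step recovered 98% of 2-fold changes for SGCs, with 12.0% of the calls on unchanged genes, and 96%, 80% and 94% for fibroblasts, macrophages and neurons, with 4.39%, 4.81% and 5.37%. Types of the same replicate number come from the same dissociation and are paired by origin. Over 28 pairs of types the correlation of their deviations had a median of 0.0527 (0.00629 to 0.179, 4 over 0.1).

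All 7 members are named, with at most 4 genes of each group of the wider list (the highest CPM in any type) and the 3 genes most like each member. Alternatives were DESeq2 1.42.0, its size factors, no TMM, no gene filter, the replicate block, other cell calls, resolutions, components, type names, references and cell numbers, doublets removed and free RNA subtracted. Python 3.11.15, numpy 2.4.6, scipy 1.17.1, scikit-learn 1.9.0 and matplotlib 3.10.9 served for the rest.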

Additional observations from a re-analysis of the deposited data

How the results depend on the processing

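Across the alternatives, 947 of the values of the 7 genes in the 8 types against the mean of the others were counted as unchanged. Where a test was run, these stayed on the same side of the threshold, and those that passed kept their direction. Where a replicate was left out, they moved by less than the SD of the 2 values found with either replicate left out, with no test. The value from both replicates lies as a rule near the middle of those 2, so this outcome was largely fixed beforehand. It covers 47 of the unchanged values without replicate 1 and 45 without replicate 2, which say little about stability. Of the rest, 41 came to pass the threshold, 37 no longer did, 20 without a replicate moved by more than that SD and 12 turned their sign. With the other cells in 1 profile, *Apoe* turned to -1.67 in nmSchwann and -0.22 in macrophages, *Apod* to -3.03 in macrophages and -3.23 in endothelial cells, *Abca1* to -0.0935 in nmSchwann, *Abcg1* to -1.09 in neurons and -0.65 in endothelial cells, and *Lrp1* to -0.52 in SGCs. Types taken cell by cell from marker pairs leave neurons out of the mean of the others. *Apod* in endothelial cells turned to -3.21 with types taken cell by cell from marker pairs and to -2.36 with the same number of cells per type, *Clu* in nmSchwann to 0.47 with types taken cell by cell, and *Clu* in SGCs to 0.81 with the RNA of empty droplets subtracted. With that RNA subtracted, the genes of the 7 past the threshold fell to 4 in SGCs (53.2% of all genes in the same fit), 2 in nmSchwann (34.9%) and 3 in mSchwann (48.7%). They fell to 3 (22.9%), 2 (12.3%) and 3 (15.2%) with the same number of cells, an alternative that uses fewer cells. The same number of cells left 22 genes of the wider list past the threshold in SGCs (22.9% of all genes in the same fit), 12 in nmSchwann (12.3%), 12 in mSchwann (15.2%), 20 in fibroblasts (21.4%), 18 in mural cells (20.6%), 28 in macrophages (31.3%) and 29 in endothelial cells (34.5%), and cutoffs over all cells, with the shallow neurons kept, left 33 in neurons (38.2%). In the main fit the share of all genes was 56.9% in SGCs, 37.6% in nmSchwann, 51.1% in mSchwann and 67.8% in neurons. It fell in each of these alternatives, but by little with the RNA of empty droplets subtracted. Pairs of types that differed were 14 for *Apoe* with that RNA subtracted, 17 for *Apod* without the gene filter and 17 with likely doublets removed, and 15 for *Abca1* with the same number of cells. For these the cause was not tested, and no share of all genes is given beside these counts of pairs. The replicate block changed 2 calls, *Apod* in nmSchwann (-1.46, adjusted p = 0.0173) and *Abca1* in mSchwann (-0.26, adjusted p = 0.0395), and no other of these 56. *Apoe* in neurons lost its call with the shallow neurons kept (-0.26, adjusted p = 0.205 by edgeR). Names from at least 3 markers and the cutoffs over all cells were chosen after seeing the data, and the first changed no call. Leaving out either replicate leaves no spread to test against, so those are values with no test. Neurons rest on 52 and 49 cells, and the low counts of *Lpl* and *Clu* in glia limit their values.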

Other observations

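Clusters that took no type's name also held these transcripts. The cluster led by *Pou3f1* (835 and 746 cells) had 18441 and 18895 CPM of *Apoe*, 167 and 145 CPM of *Abca1* and 35.8 and 32.1 CPM of *Abcg1*. A cluster led by *Ncmap* (94 and 121 cells) had 35036 and 35212 CPM of *Apoe*. Of its leading genes 10 were mSchwann markers, yet its marker pair was that of SGCs, with *Fabp7* at 5829.7 and 5593 CPM, and its median depths were 18394 and 18366 UMIs against 5104 and 5487 in mSchwann. The part of droplets that hold both cell types was not tested. The cluster led by *Lyz2* (155 and 276 cells) had 31362 and 27789 CPM of *Apoe*, and the cluster led by *Cd74* and *H2-Aa* (40 and 41 cells) had 5436 and 9218 CPM. The removed shallow cluster led by neuron genes (307 and 117 cells) had 9683 and 15566 CPM of *Apoe* and 78.2 and 120.9 CPM of *Clu*.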
